A study of Mus musculus with 3 samples.

Results

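Interferon-stimulated genes outside the well-known Ifit and Oas families were followed in murine bone marrow-derived macrophages (BMDMs) treated with lipoproteins of *Borrelia burgdorferi* (BbLP). The genes were chosen by name, with earlier results of these data known. They were *Rsad2*, *Cmpk2*, *Isg15*, *Isg20*, *Mx1*, *Mx2*, *Bst2*, *Herc6*, *Uba7* and *Ube2l6*. Of these 10 genes, 8 matched 1 row each of the 32285 genes of the count tables by symbol, and *Mx1* and *Mx2* were not analysed here. The cells came from female C3H/HeN mice aged 6 to 8 weeks, whose marrow was grown in medium with L929 cell supernatant until macrophages formed. The study's culture methods describe marrow pooled across mice. Its single-cell methods instead describe BMDMs of several mice treated independently, with the cell suspensions of the wells pooled afterwards. One library was made from control cells (UI, labelled untreated and given PBS in the study's methods). One was from cells given BbLP at 1 µg/mL for 1 h (LP1) and one from cells given the same dose for 4 h (LP4). Each came from pooled wells and was read with a 10x 3' assay. By the study's methods the PBS cells were collected at 4 h, so LP1 had no control of its own time. Because each group was 1 library, no test between groups exists, and every interval below is a 95% interval for counting error only. It does not cover the spread between cultures or animals. Intervals of levels and ratios also leave out the spread between cells.

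These genes belong to the response that type I interferon sets off. Interferon binds its receptor, the kinases Jak1 and Tyk2 activate factors such as Stat2, and these join Irf9 on a DNA element called the interferon-stimulated response element (ISRE). The products then act on viruses in different ways. Viperin, the product of *Rsad2*, makes a chain-terminating nucleotide from CTP, and Cmpk2 is a mitochondrial nucleotide kinase that can supply CTP. Isg15 is a ubiquitin-like protein that is joined to other proteins by an E1 enzyme (Uba7), an E2 enzyme (Ube2l6) and, in mice, the E3 ligase Herc6. Bst2 (tetherin) holds budding virus particles at the cell surface, and Isg20 is an exonuclease that degrades RNA.

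The genes lay on 7 chromosomes in the GENCODE annotation of mouse build GRCm38, and all 8 were protein coding. *Rsad2* (ENSMUSG00000020641, chr12:26442746-26456452, minus strand) and *Cmpk2* (ENSMUSG00000020638, chr12:26469204-26479837, plus strand) were neighbours transcribed away from each other. Their starts were separated by 12751 bases, and no gene of the count table had its place between them. *Isg15* (ENSMUSG00000035692, chr4:156199424-156200818), *Isg20* (ENSMUSG00000039236, chr7:78913424-78920396), *Bst2* (ENSMUSG00000046718, chr8:71534255-71537456), *Herc6* (ENSMUSG00000029798, chr6:57581000-57664632), *Uba7* (ENSMUSG00000032596, chr9:107975505-107984060) and *Ube2l6* (ENSMUSG00000027078, chr2:84798828-84810335) stood alone. None of the 8 overlapped another gene of the table.

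The ISRE core, taken as a pair of GAAA blocks with any 2 bases between them and searched on both strands, was looked for in the 250 bases before each RefSeq start (GRCm38.p6), since these genes are classed by their answer to interferon. It was present before *Rsad2*, *Isg15* and *Bst2*, and was not in the windows of *Cmpk2*, *Isg20* (3 starts), *Herc6*, *Uba7* and *Ube2l6*. Over all 32851 promoter windows of this length, 978 (2.98%) held it. The stretches that hold the core are shown 5′ to 3′ on the gene's strand, with the matching letters in capitals. They are chr12:26456538-26456597, chr4:156200850-156200921 and chr8:71537562-71537627, all on the minus strand.
Rsad2: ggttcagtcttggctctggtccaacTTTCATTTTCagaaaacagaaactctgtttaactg
Isg15: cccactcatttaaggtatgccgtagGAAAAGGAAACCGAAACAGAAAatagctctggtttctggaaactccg
Bst2: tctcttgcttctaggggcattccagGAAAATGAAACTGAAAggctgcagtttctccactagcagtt
*Rsad2* had 1 match, which lay on the opposite strand, *Isg15* had 3 matches that overlapped one another, and *Bst2* had 2 that overlapped. A second element, the gamma-activated site or GAS (TTC and GAA with any 3 bases between them, which reads the same on both strands), occurred in 7.02% of all windows. It was found once before *Isg20*, 73 bases ahead of the start, and once before *Bst2*, where it shared bases with the first ISRE core. A match is a match of letters, and no binding was measured.

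The libraries held 6123, 5119 and 5039 barcodes for UI, LP1 and LP4. Limits of 500 unique molecular identifiers (UMIs), 500 genes and 5% mitochondrial UMIs kept 6071, 5065 and 4670 cells. Depth went up with time of treatment, with median UMIs per cell of 5133, 9343 and 11784 and median mitochondrial shares of 1.97%, 2.84% and 3.17%, so shares of cells were compared after each cell was thinned to 2000 UMIs. Between 3 and 9 kept barcodes were shared by any pair of libraries. The 12 macrophage markers were all detected in each library, with a summed level of 10957 to 12225 CPM (counts scaled to a library total of 1000000), while B cell, T and NK cell and mast cell markers summed to at most 2.89 CPM. Among the other cell types, the 11 neutrophil markers summed to 564, 465 and 749 CPM and the 6 stroma markers to 4.29, 5.85 and 19.7 CPM in UI, LP1 and LP4. Their part in the results was not tested.

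After 4 h of BbLP, 6 of the 8 genes were at least 2-fold higher than in the control library, and none was lower. The set was headed by *Cmpk2* and *Rsad2*, followed by *Herc6*, *Isg15*, *Bst2* and *Isg20*. The enzymes *Ube2l6* and *Uba7* were higher by less than 2-fold. Over all 8019 genes with at least 10 CPM in 1 of the 2 libraries, 10.6% were at least 2-fold higher and 9.91% at least 2-fold lower, and the median log2 ratio was -0.07 against 2.46 for the 8 genes. After 1 h the picture differed: 1 of the 8 genes, *Bst2*, was at least 2-fold higher where 0.697% of 7747 genes were, and the median log2 ratio of the 8 was -0.15 against -0.02 for all genes. From 1 to 4 h, 6 of the 8 genes were at least 2-fold higher, with a median log2 ratio of 2.22, where 8.75% of 7956 genes were and 7.55% were at least 2-fold lower. The comparisons with UI share that library, and those with LP4 share LP4, so they are not independent. The study's own list of genes upregulated in LP4 already held *Rsad2*, *Cmpk2*, *Isg15*, *Herc6* and *Bst2*. The 8 genes were chosen with earlier results of these data known, so their counts and medians describe the set and no more.

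**Figure D1:**
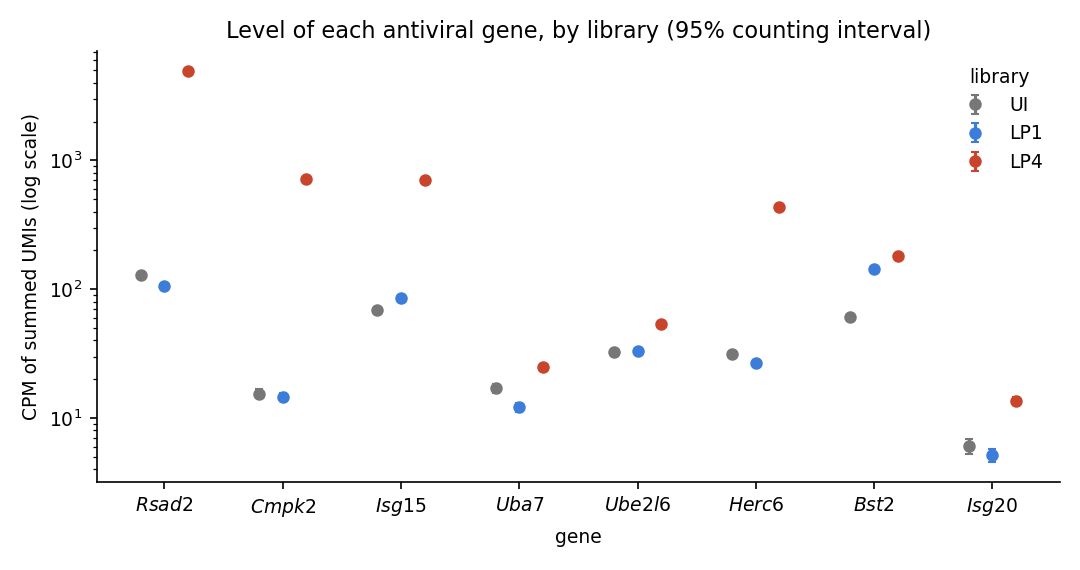
Level of each of the 8 antiviral genes in CPM of summed UMIs on a log axis, with 1 point for each library (grey UI, blue LP1, red LP4) and bars for the 95% counting interval. The red LP4 point is the highest for every gene, from 13.55 CPM for Isg20 to 4995 CPM for Rsad2, and Bst2 is the gene whose blue LP1 point lies well above its grey UI point.

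The viperin gene pair gave the largest differences. *Rsad2* was at 129.5 CPM (125.8 to 133.3) in UI, 107 CPM (104 to 109.7) in LP1 and 4995 CPM (4977 to 5012) in LP4. LP4 thus stood far above both other libraries, and LP1 lay slightly below UI. The LP4 level was 38.6-fold the UI level (log2 ratio 5.27, 5.23 to 5.31), which placed *Rsad2* at rank 16 of 8019 genes. In LP1 the log2 ratio to UI was -0.28 (-0.33 to -0.22).

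*Cmpk2*, the nucleotide kinase next to it, was at 15.5 CPM (14.2 to 16.8) in UI, 14.7 CPM (13.6 to 15.7) in LP1 and 719.7 CPM (713 to 726) in LP4. UI and LP1 overlapped within counting error, with a log2 ratio of -0.08 (-0.24 to 0.08). The LP4 level was 46.5-fold that of UI (log2 ratio 5.54, 5.42 to 5.66), at rank 12 of 8019, ahead of *Rsad2* in ratio. Its relative *Cmpk1*, the cytosolic kinase that all cells use, was at 84.0, 85.7 and 123.5 CPM, a log2 ratio of 0.56 (0.50 to 0.62) at 4 h.

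The genes for attaching Isg15 did not differ to one extent. The modifier *Isg15* itself was at 68.6 CPM (65.9 to 71.4) in UI, 85.4 CPM (82.9 to 87.9) in LP1 and 700.0 CPM (693 to 707) in LP4. LP4 was the highest by far, and LP1 lay a little above UI, by a log2 ratio of 0.31 (0.24 to 0.39). The LP4 level was 10.2-fold that of UI (log2 ratio 3.35, 3.29 to 3.41).

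The ligase *Herc6* followed the same course as *Rsad2*. It was at 31.3 CPM (29.5 to 33.2) in UI, 26.8 CPM (25.4 to 28.2) in LP1 and 434 CPM (429 to 439) in LP4. The LP4 level was 13.9-fold that of UI (log2 ratio 3.79, 3.71 to 3.88), at rank 54 of 8019, and the 1 h log2 ratio was -0.23 (-0.34 to -0.11).

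The E1 and E2 enzymes between modifier and ligase showed much smaller differences. *Uba7* was at 17.1 CPM (15.7 to 18.5) in UI, 12.1 CPM (11.1 to 13.0) in LP1 and 24.7 CPM (23.5 to 25.998) in LP4. LP1 was thus the lowest and LP4 the highest, and no pair of intervals overlapped. The log2 ratio to UI was -0.50 (-0.66 to -0.34) at 1 h and 0.53 (0.40 to 0.67) at 4 h, and that of LP4 to LP1 was 1.04 (0.90 to 1.17), just past 2-fold.

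*Ube2l6* was at 32.4 CPM (30.6 to 34.3) in UI, 33.0 CPM (31.5 to 34.6) in LP1 and 53.3 CPM (51.4 to 55.1) in LP4. UI and LP1 overlapped, with a log2 ratio of 0.03 (-0.08 to 0.14), and LP4 was higher than UI by 0.72 (0.62 to 0.82) on the log2 scale. Between *Isg15* and *Ube2l6* the intervals of the 4 h ratios lay far apart, as did those of *Herc6* and *Uba7*.

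The other genes listed for the Isg15 cycle were read beside them. *Usp18*, the protease that takes Isg15 off its targets and damps interferon signalling, was at 17.99, 16.4 and 189 CPM in UI, LP1 and LP4, a log2 ratio of 3.396 (3.28 to 3.51) at 4 h. *Trim25*, a ligase that can attach Isg15, was at 135.4, 118 and 426 CPM, a log2 ratio of 1.65 (1.61 to 1.70). *Arih1*, also a ligase in this family of reactions, was at 209, 225 and 161 CPM, a log2 ratio of -0.37 (-0.42 to -0.33). So 2 of these 3 genes were at least 2-fold higher at 4 h, where 10.6% of all genes were. None was at 1 h, where 0.697% of all genes were.

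*Bst2* was the exception in its timing. It was at 60.9 CPM (58.3 to 63.5) in UI, 143 CPM (139 to 146) in LP1 and 181 CPM (177 to 184) in LP4. The level at 1 h was already 2.34-fold that of UI (log2 ratio 1.23, 1.16 to 1.30), rank 27 of 7747 genes, and the further difference from 1 to 4 h was 0.34 (0.30 to 0.38) on the log2 scale. At 4 h the log2 ratio to UI was 1.57 (1.504 to 1.64). *Bst2* is also a known surface marker of plasmacytoid dendritic cells. Of the 6 other markers of that cell type, *Siglech* had 4, 11 and 8 UMIs and *Spib* 0, 2 and 0 UMIs in UI, LP1 and LP4, and the summed level was 363, 363 and 572 CPM. Of this sum *Tcf4* gave 184, 179 and 425 CPM, *Irf8* 145.03, 146 and 105 CPM, *Runx2* 31.4, 35.03 and 40.2 CPM and *Ccr9* 2.91, 2.90 and 1.97 CPM.

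*Isg20* had the lowest count. It was at 6.02 CPM (5.25 to 6.89) on 215 UMIs in UI, 5.13 CPM (4.53 to 5.78) on 269 UMIs in LP1 and 13.55 CPM (12.6 to 14.5) on 832 UMIs in LP4. UI and LP1 overlapped, and LP4 lay above both, with a log2 ratio to UI of 1.17 (0.95 to 1.39). The interval reaches below 2-fold, and with each cell weighted equally the ratio was 0.99, so that *Isg20* then fell short of 2-fold. Its relatives *Isg20l2* and *Aen*, exonucleases of the same family, had similar ratios of 1.30 (1.07 to 1.54) and 1.27 (1.13 to 1.42).

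The gene set stood among others of its kind. Of 15 other antiviral genes, 12 were at least 2-fold higher at 4 h, where 10.6% of all genes were. Their median log2 ratio was 1.95. At 1 h none was, where 0.697% of all genes were, with a median of -0.32 and 2 of 15 above 0. The median of all genes at 1 h was -0.02, and the share of them above 0 was not computed. The ratios at 4 h were led by *Ifit1* (5.67), *Ifit2* (4.39) and *Oasl1* (3.66), followed by *Trim21* (3.04), *Ifit3* (2.36) and *Samhd1* (2.11). *Rsad2* and *Cmpk2* thus lay between *Ifit1* and *Ifit2*, and *Bst2* was unlike these genes at 1 h, where their highest ratio was 0.08 (*Zbp1*).

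The list of 13 genes kept for interferon signalling also held the lipoprotein receptor *Tlr2* and the adaptors *Myd88* and *Ticam1*. Of the 13, 4 were at least 2-fold higher at 4 h and 1 was lower, where 10.6% and 9.91% of all genes were. The higher genes were *Stat2* (log2 ratio 3.14), the adaptor *Myd88* (1.92), the lipoprotein receptor *Tlr2* (1.53) and *Ifnb1*. *Irf3* was lower by a log2 ratio of -1.09 (-1.29 to -0.90). The 8 within 2-fold were *Ifnar1*, *Ifnar2*, *Jak1*, *Tyk2* (0.997), *Irf9*, *Irf7*, *Irf1* and *Ticam1*. *Ifnb1*, the gene for interferon beta, had 2 UMIs in UI, 10 in LP1 and 96 in LP4, where 51 of 4670 cells (1.09%, 0.814 to 1.43) held them. Its 4 h log2 ratio of 4.80 has an interval of 2.91 to 7.87. At 0.056 CPM in UI and 1.56 CPM in LP4, *Ifnb1* was not among the 8019 genes behind the shares of all genes.

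Of 11 relatives that are not counted among interferon-stimulated genes, 2 were at least 2-fold higher at 4 h, namely *Isg20l2* and *Aen* above. Of all genes 10.6% were, and the median log2 ratio of the 11 was 0.07. The ubiquitin E1 enzyme *Uba1* was at -0.11 and the E2 enzyme *Ube2l3*, the close relative of *Ube2l6*, at -0.05. The Herc ligases *Herc1* to *Herc4* lay between -0.30 and 0.69, below *Herc6*. The antiviral genes and their relatives were chosen with earlier results of these data known, so these counts describe the lists and no more.

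**Figure D2:**
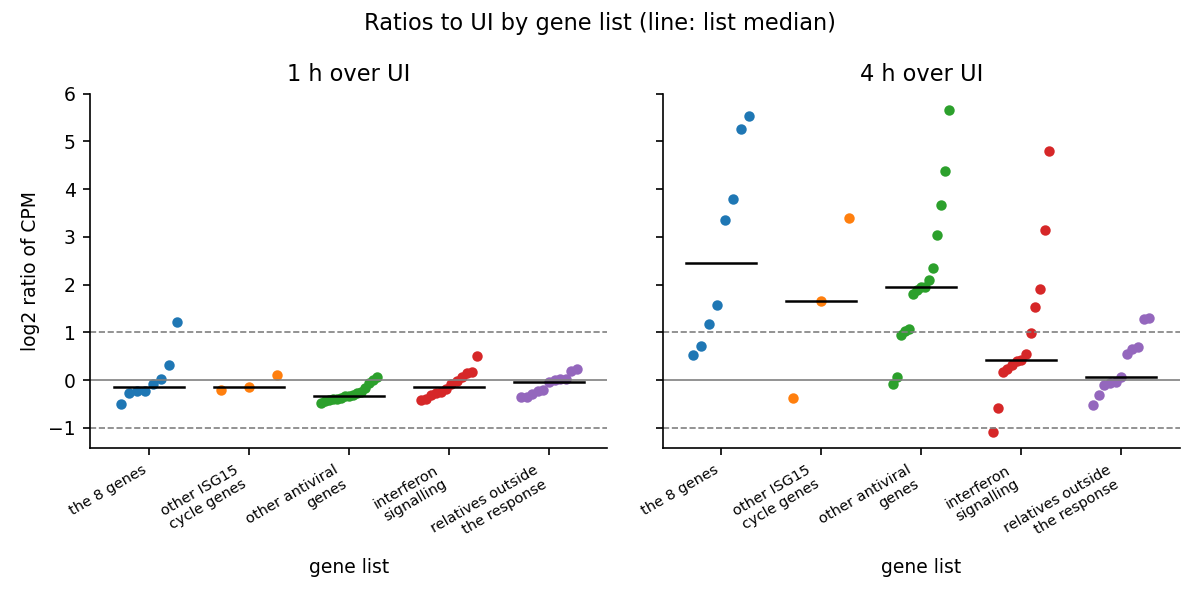
Log2 ratio of CPM to UI after 1 h (left) and 4 h (right), with 1 point for each gene, genes grouped by list, a black line at the list median and dashed lines at 2-fold. At 1 h the list medians lie between -0.32 and -0.03 and 1 gene, Bst2, passes the upper line; at 4 h the medians of the 8 genes (2.46), the other antiviral genes (1.95) and the other Isg15 cycle genes (1.65) lie above it. Ifnb1 is left out at 1 h, where both libraries together had under 20 UMIs.

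Scaling shifted all ratios together. With TMM or median-of-ratios factors in place of totals, the median log2 ratio of all genes at 4 h moved from -0.07 to 0.10 and 0.13. The share of higher genes among those past 2-fold at 4 h moved from 51.7% to 64.8% and 67.5%, and at 1 h from 60.0% to 75.5% and 77.0%. From LP1 to LP4 that share moved from 53.7% to 61.4% and 64.0%. Relative to the median of all genes, which no such factor moves, the log2 ratios at 4 h were 5.61 for *Cmpk2*, 5.34 for *Rsad2*, 3.87 for *Herc6*, 3.42 for *Isg15*, 1.64 for *Bst2*, 1.24 for *Isg20*, 0.79 for *Ube2l6* and 0.61 for *Uba7*. At 1 h the values below 0 stayed there on that scale, at -0.48 for *Uba7*, -0.26 for *Rsad2*, -0.21 for *Herc6* and *Isg20* and -0.06 for *Cmpk2*.

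The sum of the 8 genes was 361 CPM in UI, 426 CPM in LP1 and 7121 CPM in LP4, or 2.12, 4.42 and 93.6 UMIs per cell. The makeup of this sum differed between libraries, as shares of UMIs not scaled to transcript length. In UI *Rsad2* gave 35.9%, *Isg15* 19.0% and *Bst2* 16.8% of it. In LP1 *Bst2* was the first with 33.4%, and in LP4 *Rsad2* gave 70.1% and *Bst2* 2.54%.

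Detection of the genes per cell was read in cells thinned to 2000 UMIs, which left out 122 UI, 13 LP1 and 45 LP4 cells. At least 1 UMI of any of the 8 genes was found in 35.1% (33.9 to 36.3) of 5949 UI cells, 42.0% (40.6 to 43.3) of 5052 LP1 cells and 97.9% (97.4 to 98.3) of 4625 LP4 cells. At their own depth the shares were 60.9%, 82.7% and 99.8%. Neutrophil-like cells were read beside them as a rough measure of free RNA. In LP1 and LP4 they were given BbLP too and may express these genes themselves. Their thinned shares were 4 of 21 cells (19.0%) in UI, 2 of 21 (9.52%) in LP1 and 13 of 28 (46.4%) in LP4. These cells were few, and their median depth was 2940, 5891 and 9262 UMIs. In LP4 they held 36 UMIs of *Isg15* and 4 of *Cmpk2* at their own depth, genes at similar CPM in the whole library. How much of their shares was free RNA was not tested.

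*Rsad2* was detected in 8.77% of thinned UI cells (8.07 to 9.52), 6.61% of LP1 cells (5.94 to 7.33) and 91.8% of LP4 cells (91.0 to 92.6). In neutrophil-like cells of LP4 the share was 17.9% (6.06 to 36.9). Unthinned, *Rsad2* was in 15.2%, 16.0% and 97.2% of cells, so that its share was higher in LP1 than in UI before thinning and lower after it, and the CPM took the order of the thinned shares.

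The next genes by thinned share in LP4 were *Isg15* (10.3%, 11.9% and 64.4% in UI, LP1 and LP4), *Cmpk2* (2.50%, 2.04% and 60.9%) and *Herc6* (5.88%, 4.95% and 53.6%). In the LP4 neutrophil-like cells *Isg15* was in 7 of 28 cells, *Cmpk2* in 0, which allows a share of up to 10.7% by the limit of 3 counts, and *Herc6* in 1. *Bst2* went from 11.6% (10.8 to 12.5) in UI to 24.4% (23.3 to 25.7) in LP1 and 29.2% (27.9 to 30.5) in LP4, with 1 of 21, 2 of 21 and 2 of 28 neutrophil-like cells. Most of the difference in *Bst2* was thus present at 1 h in shares as well as in CPM.

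*Ube2l6* was in 6.40%, 6.24% and 9.30% of thinned cells, *Uba7* in 3.35%, 2.67% and 5.02%, and *Isg20* in 1.14%, 0.930% and 2.55%. At their own depth these shares were 16.4%, 26.3% and 45.9% for *Ube2l6*, 9.21%, 11.3% and 26.7% for *Uba7*, and 2.49%, 3.73% and 13.0% for *Isg20*. The *Uba7* share in UI lay below that of its neutrophil-like cells (2 of 21, 9.52%, 1.17 to 30.4), whose interval holds it. So few cells cannot set a background, and the *Uba7* share is not read as expression in a given share of macrophages.

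**Figure D3:**
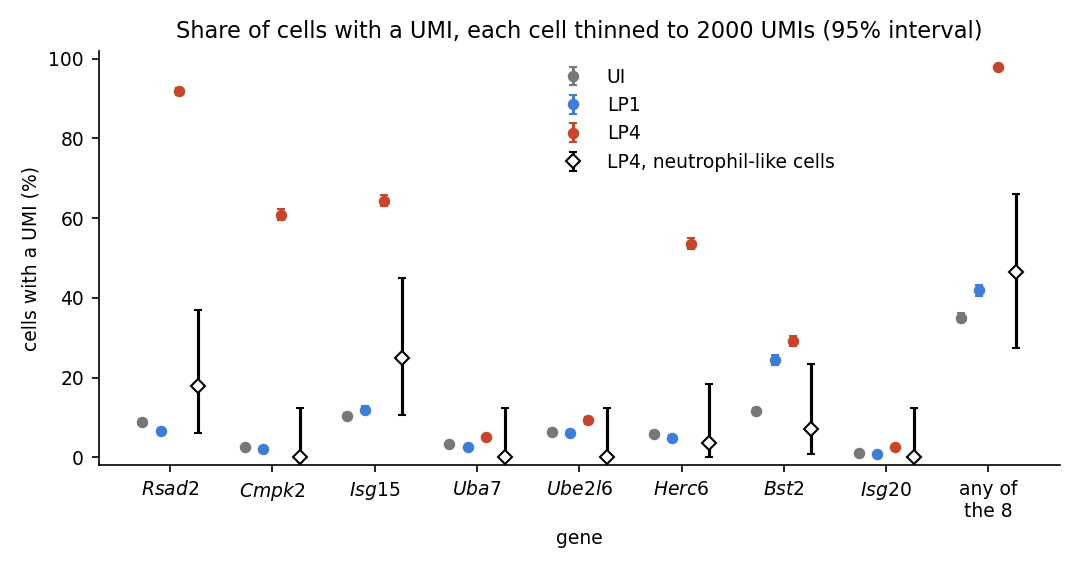
Percent of cells with at least 1 UMI of each gene, and of any of the 8, after each cell was thinned to 2000 UMIs. Circles are all cells of UI (grey), LP1 (blue) and LP4 (red), open diamonds the 28 neutrophil-like LP4 cells, and bars are exact 95% binomial intervals. Rsad2, Isg15, Cmpk2 and Herc6 reach 53.6% to 91.8% of LP4 cells, while Uba7, Ube2l6 and Isg20 stay under 10% in each library.

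Cells also differed in how many of the 8 genes they held at once. In UI 64.9% of thinned cells held none and 1.36% (81 cells) held 4 or more, and in LP1 the shares were 58.0% and 1.58% (80 cells). In LP4 2.12% held none and 41.5% (1920 cells) held 4 or more, with a median of 3 genes. No cell of any library held all 8. The summed UMIs of the 8 genes in LP4 cells had a median of 13, a 10th percentile of 3 and a 90th percentile of 28 of 2000.

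**Figure D4:**
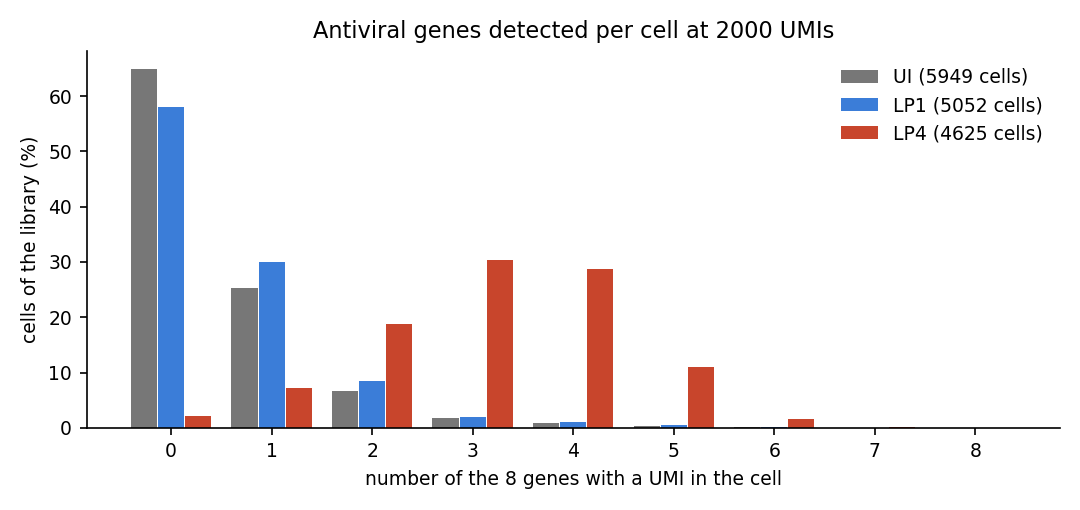
Percent of the cells of each library (bars, grey UI, blue LP1, red LP4) by the number of the 8 genes with a UMI after thinning to 2000 UMIs per cell. UI and LP1 peak at 0 genes with 64.9% and 58.0% of cells, LP4 peaks at 3 genes, and cells with 4 or more make up 1.36%, 1.58% and 41.5%.

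A few control cells held several of the genes at once. The 81 UI cells with 4 or more of the genes were 1.36% of cells. They held 42.1% of the thinned *Rsad2* UMIs, 38.7% of those of *Cmpk2*, 54.8% of *Isg20* and 24.8% of *Isg15*. For *Herc6* the share was 18.4%, for *Ube2l6* 9.60%, for *Uba7* 7.39% and for *Bst2* 7.02%. Having a UMI of several of these genes was how these cells were picked. The choice itself raises these shares, so they do not measure how uneven each gene was. None of the 81 shared its barcode with another library, and 4 were among the 5% of cells with the highest doublet scores. Their median depth was 4569 UMIs against 5208 in the others. Of the 81, 72 were in macrophage-like or cycling-like clusters, which held 5636 of the 5949 thinned UI cells. In the clusters described below, 34 were in macrophage-like cluster C (2.46% of its cells) and 5 in dendritic cell-like cluster H (5.49%). In the other clusters with at least 50 cells in each library the share was 0.427% (E) to 2.21% (G). In LP1 the 80 cells with 4 or more of the genes held 54.5% of the *Rsad2* and 6.92% of the *Bst2* UMIs.

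Spread over cells was also read gene by gene. In UI the 5% of cells with the most *Rsad2* held 86.3% of its UMIs, and 1 cell had 37 of 2000 UMIs. That share is high for any gene held by few cells, and it falls as more cells hold the gene. In UI it was 86.6% for *Herc6* and 78.8% for *Ube2l6*, so it is not read as unevenness. The ratio of variance to mean over cells, which is 1 for counting noise alone, was 10.2 for *Rsad2* in UI, 10.8 in LP1 and 6.49 in LP4, where the top 5% of cells held 15.4%. *Bst2* (1.06, 1.23 and 1.10) and *Ube2l6* (1.01, 1.01 and 0.980) stayed near 1 in all 3 libraries. *Cmpk2* (2.22, 2.44 and 2.16) and *Isg15* (2.17, 2.74 and 2.13) lay between. The mean UMIs per thinned cell were 0.127, 0.306 and 0.361 for *Bst2* and 0.067, 0.065 and 0.097 for *Ube2l6* in UI, LP1 and LP4. *Rsad2* was at 0.276, 0.229 and 10.25. At low means this ratio can stay near 1 even where cells differ, so a value near 1 is not read as even expression.

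*Rsad2* and its neighbour *Cmpk2* went together most closely. Across thinned cells the Pearson correlation of their log2(UMI + 1) was 0.51 in UI, 0.54 in LP1 and 0.57 in LP4, the highest of the 28 pairs in each library. The next was *Rsad2* with *Isg15* (0.42, 0.42 and 0.25), and the lowest was *Bst2* with *Uba7* (-0.002, 0.01 and -0.01). The median pair was at 0.08, 0.08 and 0.04. Cells of 1 library share its free RNA, and sparse genes can reach only low values, so these numbers describe the cells and have no p.

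Among UI cells with an *Rsad2* UMI, 16.5% also had *Cmpk2*, against 1.16% of those without. For *Isg15* the shares were 33.5% and 8.11%, and for *Herc6* 20.3% and 4.496%. *Bst2* differed less, with 18.01% and 11.0%. In LP4, where 380 cells had no *Rsad2* UMI, *Cmpk2* was in 65.3% of cells with and 11.8% of those without, and *Bst2* in 29.5% and 25.8%.

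The genes outside the set whose counts went most closely with its sum in LP4 cells were *Ifit1* (r = 0.58), *Ifit2* (0.47), the chemokine gene *Cxcl10* (0.44), *Gbp5* (0.35) and *Ifi203* (0.33), of 2984 genes with a UMI in at least 10% of 4625 cells. The median gene was at -0.01 and the 95th percentile at 0.10. In UI the closest were *Parp14* (0.33), *Rnf213* (0.30), *Ifi203* (0.29), *Irf7* (0.28) and *Ifi44* (0.27), over 5949 cells. The LP4 sum had a correlation of 0.01 with the cell's total UMIs before thinning.

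The cells were then grouped into 10 clusters, A to J, on genes that left out all 8 and those differing by 1.5-fold or more between libraries. Clusters A to E were macrophage-like by their markers, F cycling-like and H dendritic cell-like. The name of H rests on *H2-Eb1*, *H2-Ab1*, *H2-Aa* and *Cd74* among its leading genes. Of the 11 dendritic cell markers, 4 were at least 4-fold over other cells there. H also held 7 macrophage markers in at least 50% of its cells, where A to E held 6 to 8, so it is not set apart from macrophages by those. Cluster G was left unnamed, since it held macrophage markers but was led by genes of DNA replication (*Hells*, *Mcm4*, *Mcm6* and *Mcm7*). These 8 clusters had at least 50 cells in each library. Cluster C held 1412 UI and 63 LP4 cells and cluster D 490 UI and 1353 LP4 cells, so those clusters differ in makeup between libraries. All 64 ratios of LP4 to UI, of 8 genes in 8 clusters, were above 0. Of all genes with at least 10 CPM and 20 UMIs in a cluster, 45.3% (E) to 50.5% (F) were above 0. Of the 64 ratios, 47 were at least 2-fold higher, where 12.5% of all such gene and cluster pairs were. By cluster that share of all genes ran from 10.1% (E) to 14.7% (C). The interval held 0 for 6 of the 64, which were ratios of *Uba7* (C, G and H), *Isg20* (F and G) and *Ube2l6* (H).

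*Rsad2*, *Cmpk2*, *Isg15*, *Herc6* and *Bst2* were past 2-fold in every one of these clusters. For *Rsad2* the log2 ratio ran from 4.53 in the dendritic cell-like cluster H to 6.32 in cluster G. The levels behind these ratios varied too: *Rsad2* in UI went from 51.5 CPM in G to 271 CPM in C, and in LP4 from 3428 CPM in the cycling-like cluster F to 7361 CPM in C. *Isg15* had its highest ratio in H (4.11), where it stood at 1314 CPM in LP4 against 431 CPM in F. *Herc6* was the most even of the strong genes, with 365 to 526 CPM in LP4 and log2 ratios of 3.36 to 4.03.

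At 1 h *Bst2* stood above UI in all 8, with log2 ratios of 1.01 (G) to 1.64 (D), and from 1 to 4 h it differed by 0.03 (D) to 0.58 (C). *Rsad2* was above 0 at 1 h in 1 of 8 clusters, *Herc6* in 1, *Uba7* in 1 and *Isg15* in 8. The share of all genes above 0 at 1 h was not computed by cluster. *Isg20* had 41 to 285 UMIs per cluster in UI and LP4 together and log2 ratios at 4 h of 0.25 (F) to 1.82 (C). *Uba7* lay between 0.26 and 0.94 and *Ube2l6* between 0.47 and 1.11.

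**Figure D5:**
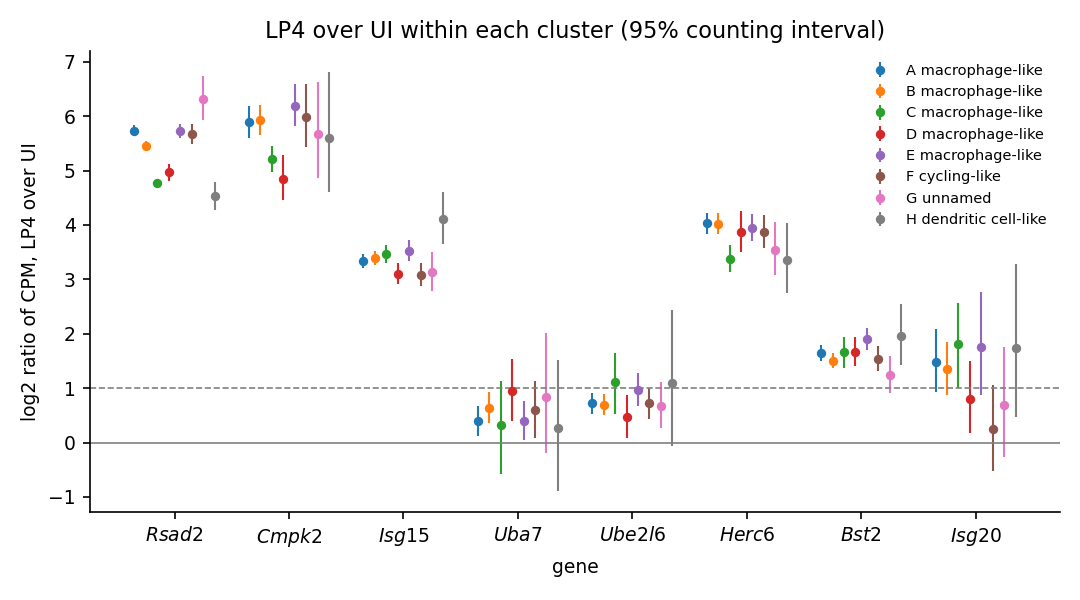
Log2 ratio of CPM, LP4 over UI, of each gene within 8 clusters (colours), with bars for the 95% counting interval, a solid line at 0 and a dashed line at 2-fold. All 64 points lie above 0, and those of Rsad2, Cmpk2, Isg15, Herc6 and Bst2 lie above the dashed line in every cluster. Uba7, Ube2l6 and Isg20 each have their own widest interval in cluster H.

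The LP4 cells without any of the genes were looked at by cluster. Of the 98, 78 were in macrophage-like or cycling-like clusters and 20 in the others. The cycling-like cluster held 14 of them among its 228 cells (6.14%), against 0.921% to 1.86% in the 5 macrophage-like clusters, 1.31% of the 153 cells of cluster G and 0 of 71 dendritic cell-like cells, which allows up to 4.23% by the limit of 3 counts. Neutrophil-like cells held none of the genes in 15 of 28 cases, and the median depth of the 98 cells before thinning was 11082 UMIs, close to that of the whole library.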

How the data were processed

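UMI counts per gene and cell were deposited by the authors as filtered 10x matrices, 1 per library. Cell Ranger 7.1.0 and mm10 are named in the submitters' processing notes. Whether intronic reads were counted is not given in the sources used here. One further gene chosen for the interferon signalling list was left out of its counts and is not reported here. The 8 genes and the lists were chosen with earlier results of these data known. All 8 genes are named. LP4 ratios are given for up to 6 genes of each list by the size of that ratio, with any relative that pairs with one of the 8. Other genes of the lists may be named without their LP4 ratio. Of the genes most like the sum, the 5 with the highest r are named.

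Cells with at least 500 UMIs, at least 500 genes and under 5% mitochondrial UMIs were kept. The counts of kept cells were summed by library (35688939, 52475723 and 61402275 UMIs) and given as CPM with exact Poisson 95% intervals. Ratios have exact conditional binomial intervals, and shares have exact Clopper-Pearson intervals, with the limit that 3 counts allow where a share is 0. These cover counting error only, and those of levels and ratios take each UMI as independent. A gene was called past 2-fold at a log2 ratio of at least 1 or at most -1, with at least 20 UMIs in the pair for the 8 genes and lists and at least 10 CPM in 1 library for all genes. Genes of the set and lists under 10 CPM, such as *Isg20* and *Trim21* at 1 h and *Ifnb1* at 4 h, were counted but are not among all genes. A library at 0 was set to a floor of 3 counts. Cells were thinned without replacement to 2000 UMIs.

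Clustering (scanpy 1.11.5, leidenalg 0.10.2) used 2000 variable genes centred within each library, 30 components, 20 neighbours and resolution 0.5. A cluster was named from markers, and clusters may differ from those of the study. No cell was removed as a doublet; the 5% of cells with the highest doublet score were left out in an alternative. TMM factors came from edgeR 4.0.16. The ratio and its interval were tested on simulated data, with 200 of 7516 genes changed for LP4 over UI. All 200 were recovered past 2-fold and 94.9% of the intervals held the true value. The simulated counts followed the same counting model as the intervals, and the changes were set beyond the cutoff. This checks the calculation, and not how the intervals hold where cells differ in their counts. Sequences came from RefSeq promoters (GRCm38.p6), where all 8 genes matched by symbol.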

Additional observations from a re-analysis of the deposited data

Results flagged for a closer look

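Several genes were lower than UI at 1 h and higher at 4 h, with both counting intervals clear of 0. The log2 ratio at 1 h was -0.28 for *Rsad2*, -0.23 for *Herc6* and -0.50 for *Uba7*, against 5.27, 3.79 and 0.53 at 4 h. Over all 7747 genes the 1 h log2 ratio had a median of -0.02 and a standard deviation of 0.32. From the highest, *Rsad2* ranked 6516, *Herc6* 6150 and *Uba7* 7409 among them. The share of all genes with such a change of sign was not computed. The variance-to-mean ratio of *Rsad2* over thinned cells was 10.2 in UI and 10.8 in LP1, a spread that the interval leaves out. With it the *Rsad2* interval at 1 h would be wider, and whether it would hold 0 was not tested. With 1 library per group the difference between the times was not tested. By the study's methods UI was collected at 4 h. The part of treatment in the 1 h ratios thus cannot be told apart from that of time. Both comparisons share the UI library, and the 1 h ratios kept their sign under all 9 other ways of counting and scaling.

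The barcodes that the cell limits left out entered no comparison of the report, and only the alternatives with other cell limits used them. In LP4 these 369 barcodes held 6001 CPM of the 8 genes together (5919 to 6084), against 164 CPM (78.6 to 302) in the 52 left out of UI and 7121 CPM in kept LP4 cells.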

How the results depend on the processing

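Each of the 8 genes kept the direction of its 4 h ratio under all 9 alternatives (other cell limits, scalings, cell weights and cell sets), and 6 of 8 genes past 2-fold became 5 when each cell was weighted equally, where *Isg20* was at 0.99. At 1 h *Ube2l6*, at 0.03, was at -0.002 with equal weights. Of 216 gene ratios under alternatives, 36 left the counting interval. With a minimum of 50 CPM in place of 10, the genes at least 2-fold higher were 28 at 1 h (54 with 10), 486 at 4 h (850) and 427 from LP1 to LP4 (696), fewer genes being tested. The share of cells with any of the genes depended on depth. It was 95.1% in LP4 and 21.4% in UI at 1000 UMIs, 99.5% and 58.3% at 5000, and 99.8% and 60.9% without thinning, so the LP4 share is near its ceiling and the UI share has no fixed value. The 5 genes past 2-fold in every cluster numbered 5 at each of the 3 other cluster settings, and with 15 components 70 of 72 ratios were above 0. *Isg20* and *Uba7* are limited by their counts within small clusters. No paired analysis was possible because each group is 1 library and the groups share fewer than 2 replicate numbers.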
